A study of Homo sapiens with 48 samples.

Results

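Interferon-induced antiviral effectors, 8 genes in all, were followed through the 16 groups of the study: MX1, MX2, RSAD2, BST2, XAF1, IFITM1, IFITM2 and IFITM3. They were taken by symbol, as the rows of the raw count table whose Ensembl identifiers carry those names, and make up 8 of the 48898 genes in the table. Each has values in all 48 libraries. The choice did not rest on their counts, but it was made with earlier results of these data known.

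Messenger RNA was sequenced in 3 experiments that asked how the mitochondrial fusion proteins MFN1 and MFN2 bear on cells made senescent with doxorubicin, a drug that breaks DNA. Doxorubicin was given at 200 nM for 48 h throughout. In IMR-90 cells, fibroblasts from fetal lung, and in SK-MEL-103 melanoma cells, siRNA against MFN1 (siMFN1), MFN2 (siMFN2), both (siMFN1+2) or the RNA-sensing adaptor MAVS (siMAVS), or a control siRNA (cNEG), went in the day before the drug and RNA was collected on day 7, beside proliferating cells that carried the control siRNA. In a further IMR-90 experiment without siRNA, senescent cells received MFI8 at 20 µM (labelled a mitofusin inhibitor), BI at 10 µM (labelled an activator) or the solvent DMSO for 48 h and were collected on day 9, beside proliferating cells in DMSO. Every group holds 3 libraries, numbered 1 to 3, and values below are listed in that order. The labels do not say that libraries of a group came from separate cultures, so p-values measure the spread between these samples, which may be technical. Each line was studied as a single line. In bulk RNA, fewer cells expressing a gene and less RNA per cell cannot be told apart.

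Type I interferons bind a receptor that activates a transcription factor complex (ISGF3), which binds a short element, the ISRE, in the promoters of their target genes. The 8 genes are such targets and act at different steps of infection. IFITM proteins sit in membranes and hinder viral entry, the MX proteins are dynamin-like GTPases that trap viral components inside the cell, RSAD2 (viperin) makes a chain-terminating nucleotide, BST2 (tetherin) holds budding virions at the surface, and XAF1 opposes the apoptosis inhibitor XIAP. Cytosolic DNA and RNA that appear in senescent cells can feed the same pathway through cGAS, RIG-I and MAVS.

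The promoters were searched for that element because the 8 genes were chosen as interferon targets. RefSeq promoter windows (250 bases before to 50 after a gene start, GRCh38.p14) were found for 6 of the 8 genes; MX2 and IFITM2 are named only. The core of the ISRE was searched as GAAA, any 2 bases and GAAA again, on both strands, with overlapping matches kept. It was present in 5 of these 6 genes, against 1195 of 27305 genes (4.38%) with a window in the same table, counting any start. In the lines below, capitals mark the core or its reverse complement, and each window is written 5′ to 3′ on the strand of the gene.
RSAD2 (chr2:6877612-6877661, plus strand): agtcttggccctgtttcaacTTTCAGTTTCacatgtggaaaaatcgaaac
IFITM1 (chr11:313980-314048, plus strand): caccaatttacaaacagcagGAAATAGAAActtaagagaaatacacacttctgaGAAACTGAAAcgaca
IFITM3 (chr11:320866-320932, minus strand): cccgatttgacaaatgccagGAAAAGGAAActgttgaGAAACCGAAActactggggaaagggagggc
BST2 (chr19:17405725-17405780, minus strand): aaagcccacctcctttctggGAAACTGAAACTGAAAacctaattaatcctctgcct
MX1 (chr21:41420549-41420583, plus strand): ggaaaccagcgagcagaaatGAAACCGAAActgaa

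IFITM1, IFITM3 and BST2 held 2 matches each, and in BST2 the matches overlap. The MX1 match lies just after the start that is shown. Another MX1 start, not shown, also had 1 match, and a further MX1 start had 0. Another RSAD2 start, not shown, had 0 as well. Neither XAF1 window held the core, which says only that these letters are not in those windows. Another interferon element, the GAS (TTCNNNGAA), was found in 3 of the 6 genes (IFITM1, BST2 and MX1), where 1 match in each overlapped an ISRE match, and in 9.38% of all genes. Of 56 other interferon-induced antiviral genes, 41 had a window and 27 of these held the ISRE core, as did 5 of 23 genes for interferons, their receptors and signalling. A match is a description of letters and was not tested as a binding site.

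On GRCh38 with GENCODE 29, all 8 are protein-coding genes. MX2 (ENSG00000183486, chromosome 21, 41361943 to 41409390) and MX1 (ENSG00000157601, 41420304 to 41459214) are neighbours on the plus strand. RSAD2 (ENSG00000134321) lies on chromosome 2 from 6865806 to 6898239, BST2 (ENSG00000130303) on chromosome 19 from 17402939 to 17405648, and XAF1 (ENSG00000132530) on chromosome 17 from 6755447 to 6775647. The IFITM genes lie together on chromosome 11: IFITM2 (ENSG00000185201) from 307631 to 315272, IFITM1 (ENSG00000185885) from 313506 to 315272 and IFITM3 (ENSG00000142089) from 319669 to 327537. IFITM1 lies within the span of IFITM2 on the same strand, and their annotated exons overlap. Of the 50-base words in IFITM1 exons, 30.3% also occur in IFITM2 exons, and 12.1% of those of IFITM3 occur in IFITM2, so the split of reads among these 3 genes is uncertain. Exons of RSAD2 overlap those of CMPK2, a nucleotide kinase gene on the opposite strand. The strand setting of the counting is not given in the sources used here, so reads from that overlap cannot be told apart. CMPK2 itself held 854 counts over all 48 libraries.

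Libraries held 15206115 to 79204217 counts, and depth fell with the library number: number 1 had at least 53390716 counts and number 3 at most 31127306. Fibroblast markers identified the IMR-90 libraries (7 of 7 at a mean of 1 CPM or more, with CPM the counts per 1000000 counts of the TMM-scaled library). In SK-MEL-103, SOX10 and MITF passed that level and the other 5 of 7 melanocyte markers did not, PMEL, MLANA and TYRP1 among them. MITF and TYRP1 passed it in IMR-90, and in SK-MEL-103 so did 2 of 7 fibroblast markers and 1 of 6 leukocyte markers, HLA-DRA, at group means of 186 CPM in proliferating cells and 994 to 1170 CPM after doxorubicin. Of other types, 1 of 4 epithelial and 1 of 3 endothelial markers passed it in IMR-90, and 2 of 4 epithelial markers in SK-MEL-103. The part of these in the results was not tested. Each siRNA lowered its target: in IMR-90, MFN1 went from 51.4 to 7.67 CPM with siMFN1, MFN2 from 167 to 18.3 with siMFN2 and MAVS from 129 to 45.5 with siMAVS, and in SK-MEL-103 from 51.7 to 17.2, 94.9 to 19.3 and 168 to 61.3. An IMR-90 siMAVS library (number 1) stands apart in HOXA10, at 0.242 CPM against 3.44 to 8.26 in the other 29 IMR-90 libraries, a gene chosen after its values were seen. An IMR-90 control library after doxorubicin (number 3) was the highest of its group in 7 of the genes followed here, MX2 excepted, and the values that moved most without it are given both ways.

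Per kilobase of exon, which allows genes to be compared, IFITM3 was by far the most abundant, at group means of 152 to 312 CPM per kilobase in IMR-90 and 91.9 to 203 in SK-MEL-103. IFITM2 followed in IMR-90 with 57.9 to 90.8 and was low in SK-MEL-103 with 0.286 to 1.07. MX2 came after IFITM3 in SK-MEL-103, at 3.40 to 3.69. RSAD2 was the lowest in IMR-90 by its lowest group, 0.0012 to 0.514. A gene was called changed at an adjusted p below 0.05 in the edgeR quasi-likelihood test, with the adjustment over all genes tested, and differences are on the log2 scale with their standard error (SE).

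In IMR-90 cells with control siRNA, doxorubicin raised RSAD2, XAF1 and IFITM3 and lowered IFITM2. These 4 called genes of 8 stand against 49.6% of all 19077 genes tested, 3 of 8 higher against 25.9% and 1 of 8 lower against 23.6%, so the share called was like that of the genome. Their median difference was 0.90, against 0.09 over all genes.

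IFITM3 was at 227, 246 and 247 CPM in proliferating cells and 307, 311 and 384 CPM after doxorubicin. The groups do not overlap, and IFITM3 rose by 0.51 (SE 0.11, adjusted p = 0.0016). IFITM2, its neighbour, went the other way: it was at 126, 143 and 151 CPM before and 70.1, 84.6 and 113 CPM after, again without overlap. It fell by 0.62 (SE 0.19, adjusted p = 0.016), a call lost without control library 1 after doxorubicin (-0.47, adjusted p = 0.081). IFITM1 was at 7.46, 10.1 and 9.73 CPM before and 5.28, 5.73 and 23.3 CPM after, so 2 libraries lay below all 3 proliferating ones and 1 well above (0.36, SE 0.47, adjusted p = 0.54). Without that high library, number 3, the sign turned (-0.70, SE 0.33, adjusted p = 0.097).

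RSAD2 was almost silent in proliferating IMR-90 cells, at 0.0147, 0.0608 and 0.043 CPM, and reached 0.407, 0.196 and 1.3 CPM after doxorubicin. It rose by 4.07 (SE 0.98, adjusted p = 0.0033) with no overlap of the groups, and was still called in all 6 fits that each leave out 1 library. XAF1 went from 3.19, 7.15 and 3.7 CPM to 7.91, 7.02 and 18.7 CPM. It was called higher by 1.29 (SE 0.47, adjusted p = 0.033), although library 2 of the proliferating group overlaps the senescent ones, and the call is lost without control library 3 after doxorubicin (0.69, adjusted p = 0.23), without proliferating library 1 (adjusted p = 0.12) or without proliferating library 3 (adjusted p = 0.11).

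MX1 was at 1.07, 0.852 and 1.29 CPM in proliferating cells and 1.1, 1.08 and 6.99 CPM after doxorubicin. A single library carried the mean, and the difference of 1.53 (SE 0.69) was not called (adjusted p = 0.079). Without that library it was 0.05 (adjusted p = 0.95), and without library 1 or 2 of the same group it was 1.94 and called (adjusted p = 0.038 and 0.034). BST2 was at 0.718, 0.274 and 0.904 CPM before and 1.77, 1.7 and 2.71 CPM after; the groups do not overlap, and the difference of 1.74 (SE 0.73) missed the threshold (adjusted p = 0.06). It passed with DESeq2 (adjusted p = 0.034) and in an edgeR fit with adjusted deviances (adjusted p = 0.013).

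**Figure D1:**
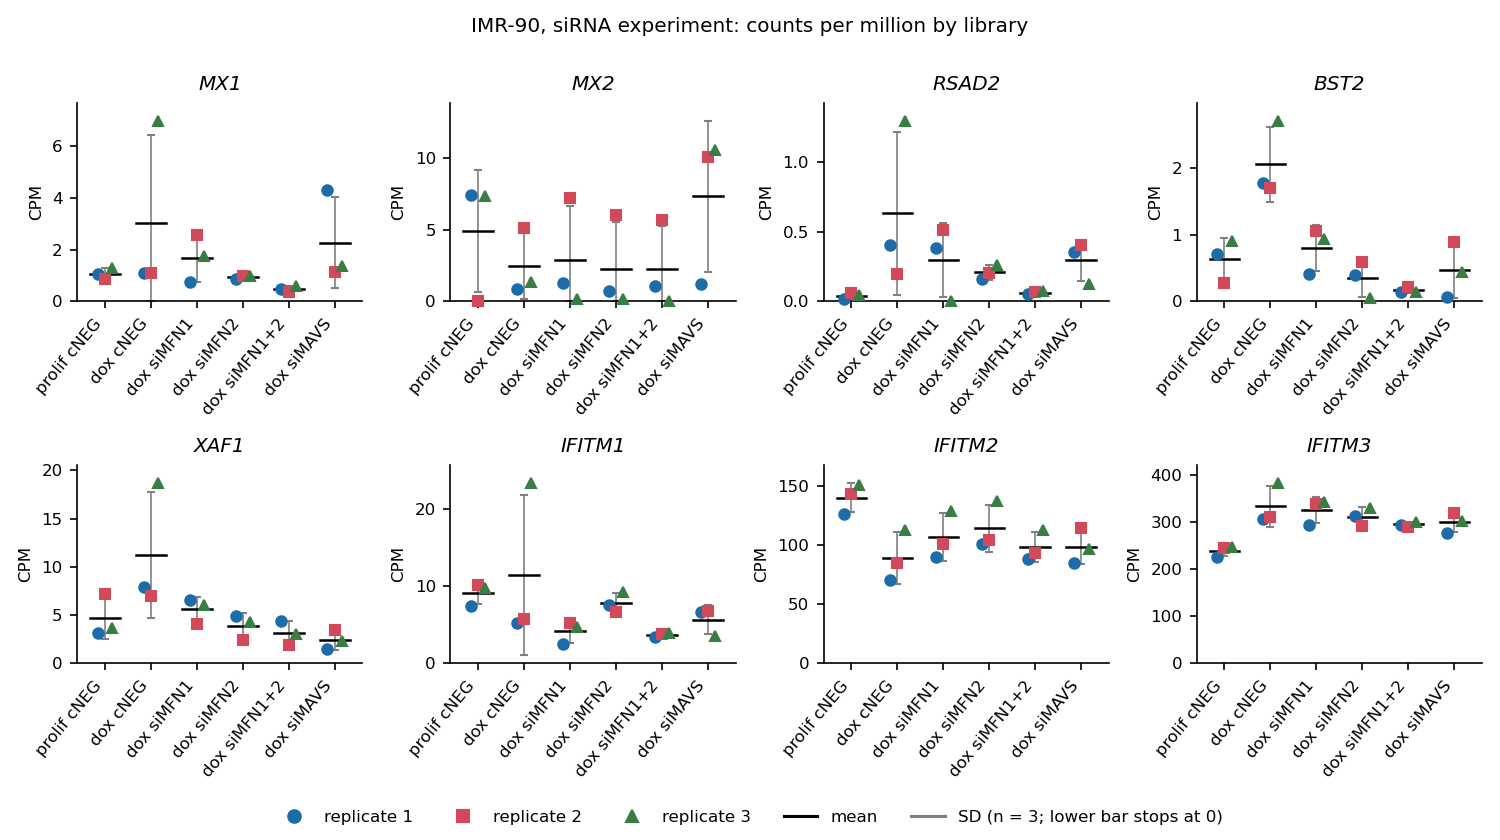
CPM of the 8 genes in each library of the IMR-90 siRNA experiment, 1 panel per gene and a linear axis from 0, with symbols for library number, a line at the mean and bars for the SD (n = 3). Control library 3 after doxorubicin lies at 6.99 CPM in MX1 and 23.3 CPM in IFITM1, far above the other libraries of its group, and the siMFN1+2 libraries of MX1, RSAD2 and BST2 lie below all control libraries after doxorubicin.

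Silencing of the mitofusins or MAVS in senescent IMR-90 cells gave no called change among the 8 genes in the edgeR fit that takes no account of library number. A fit with the number as a block did call genes with the mitofusin siRNAs and is given below. The call rule took 0 of 8 with siMFN1, siMFN2, siMFN1+2 and siMAVS, against 1.08%, 0.0839%, 1.01% and 0.204% of all genes tested with edgeR. At an unadjusted p below 0.05 the counts were 2, 3, 5 and 3, against 14%, 11.6%, 14.8% and 12.9% of all genes. DESeq2 called 1, 2, 4 and 1, against 5.76%, 2.07%, 5.39% and 3.03% of the genes it gave an adjusted p. The edgeR fit with adjusted deviances called 0, 0, 2 (1.57% of genes) and 1 (0.634% of genes). The median difference over the 8 genes was -1.74 with the double silencing, against -0.01 over all genes, and -0.89, -1.05 and -0.72 with siMFN1, siMFN2 and siMAVS.

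With siMFN1+2, BST2 was at 0.139, 0.219 and 0.144 CPM against 1.77, 1.7 and 2.71 CPM with control siRNA. Every siMFN1+2 library was below every control library, and below every proliferating one. The log2 difference was -3.57 (SE 0.83, adjusted p = 0.054), and it was called with DESeq2 (adjusted p = 0.00082) and with adjusted deviances (adjusted p = 0.018). BST2 was at 0.413, 1.06 and 0.929 CPM with siMFN1, 0.402, 0.596 and 0.0437 CPM with siMFN2, and 0.0661, 0.895 and 0.443 CPM with siMAVS. None of these groups overlaps the control group, and the differences were -1.39, -2.49 and -2.15 (adjusted p = 0.42, 0.23 and 0.23).

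RSAD2 was at 0.0521, 0.0657 and 0.0719 CPM with siMFN1+2, close to the proliferating level, against 0.407, 0.196 and 1.3 CPM in the senescent control. The log2 difference of -3.27 (SE 0.92, adjusted p = 0.1) was called with adjusted deviances (adjusted p = 0.045), and DESeq2 gave no adjusted p. MX1 was at 0.487, 0.372 and 0.575 CPM, under all 3 proliferating libraries as well (-2.69, SE 0.74, adjusted p = 0.095; DESeq2 adjusted p = 0.0069).

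XAF1 was at 4.36, 1.86 and 3.09 CPM with siMFN1+2 against 7.91, 7.02 and 18.7 CPM in the control, a log2 difference of -1.85 (SE 0.48, adjusted p = 0.079). It was lowest with siMAVS, at 1.45, 3.45 and 2.34 CPM, and that difference of -2.23 (SE 0.48) had an adjusted p of 0.072. DESeq2 (adjusted p = 0.00059) and adjusted deviances (adjusted p = 0.049) called it. IFITM1 was at 3.44, 3.75 and 3.95 CPM with siMFN1+2 and 2.48, 5.16 and 4.76 CPM with siMFN1, below the lowest control library at 5.28 CPM in each case (-1.63 and -1.48, adjusted p = 0.12 and 0.17). Across the 4 silencings IFITM3 differed by only -0.18 to -0.04 and IFITM2 by 0.13 to 0.34, with no call.

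Libraries of the same number deviated together in the 3 mitofusin comparisons, and a fit on only the compared groups with the number as a block called more genes throughout. It called 3 of the 8 with siMFN1 (16.1% of all genes): BST2 (adjusted p = 0.013), XAF1 (0.033) and IFITM1 (0.034), all lower. With siMFN2 it called BST2 (adjusted p = 0.014) and XAF1 (0.0081) lower and IFITM2 higher by 0.35 (0.036), 3 of 8 against 12.9% of genes. With siMFN1+2 it called MX1 (adjusted p = 0.011), BST2 (0.00042), XAF1 (0.0039) and IFITM1 (0.033) lower, 4 of 8 against 16.7%. RSAD2 was not tested in that last fit. With siMAVS the library numbers did not pair (correlation of deviations -0.434 to 0.46), and the blocked fit called 0 of 8 against 0% of all genes.

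Part of the size of these differences rests on control library 3. Without it, the siMFN1+2 difference was -1.21 for MX1, -2.27 for RSAD2, -3.32 for BST2, -1.26 for XAF1 and -0.56 for IFITM1, with adjusted p from 0.13 to 0.49. With siMFN1 alone, the IFITM1 difference shrank to -0.41 (adjusted p = 0.61), that of BST2 was -1.14 and that of XAF1 -0.41, and MX1 and RSAD2 were at 0.62 and 0.09. With siMFN2, BST2 was at -2.24, XAF1 at -0.95 and IFITM1 at 0.51, and with siMAVS XAF1 was at -1.63 (adjusted p = 0.21), BST2 at -1.90 and IFITM1 at 0.04. Without siMAVS library 1, the XAF1 difference with siMAVS was -1.96 (adjusted p = 0.11) and that of BST2 -1.61 (adjusted p = 0.24).

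Against siMAVS, the siMFN1+2 libraries were lower in MX1 and RSAD2 without overlap (-2.27 and -2.24), and without siMAVS library 1 the differences were -1.40 and -2.10. Of the 8 genes, 0 were called by edgeR (0.152% of all genes), 2 had an unadjusted p below 0.05 (6.32% of all genes) and DESeq2 called 0. Set against proliferating cells, siMFN1+2 senescent cells had IFITM3 called higher (0.33, adjusted p = 0.027) and IFITM1 lower (-1.26, adjusted p = 0.048), 2 of 8 against 40.1% of all genes. The IFITM1 call was lost in each of the 6 fits that leave out a library (adjusted p 0.063 to 0.12) and the IFITM3 call in 5 of them. RSAD2, BST2, MX1 and XAF1 were not called there, and their intervals are wide: for RSAD2 the 95% interval of the log2 difference ran from -1.73 to 3.32.

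In SK-MEL-103 cells BST2 and XAF1 were too low to be tested, and 6 genes remained. Of these, 4 were called higher with doxorubicin, RSAD2, IFITM1, IFITM2 and IFITM3, and MX1 and MX2 were not called. IFITM1 passed the low-count filter through the senescent control group, where it was highest. Its calls within SK-MEL-103, higher here and lower with silencing below, lean on that filter and are not read as a result. The 4 of 6 compare with 59.3% of 17945 genes called in either direction and 29.4% called higher, and the median difference of the 6 was 1.11 against 0.03 for all genes.

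RSAD2 was at 0.0161, 0.0644 and 0 CPM in proliferating SK-MEL-103 cells and 1.42, 1.72 and 0.835 CPM after doxorubicin, a rise of 5.25 (SE 0.55, adjusted p = 3.8e-07). IFITM1 went from 0.0323, 0.0429 and 0.136 CPM to 0.642, 0.515 and 0.371 CPM, a rise of 3.07 (SE 0.55, adjusted p = 0.00014). Neither gene had a proliferating library as high as the lowest senescent one. IFITM2, at 0.662, 0.343 and 0.317 CPM before and 1.16, 0.752 and 1.45 CPM after, rose by 1.17 (SE 0.35, adjusted p = 0.0084). IFITM3 went from 101, 125 and 146 CPM to 291, 266 and 265 CPM, rising by 1.05 (SE 0.11, adjusted p = 5.7e-07). All 4 calls held in each of the 6 fits that leave out 1 library.

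MX2 stood at 37.3, 55.4 and 49 CPM before and 50.3, 48.2 and 46 CPM after doxorubicin, with overlapping groups (-0.06, SE 0.11, adjusted p = 0.62); without proliferating library 1 it was called lower by a small amount (-0.22, adjusted p = 0.026). MX1, at 0.678, 0.751 and 0.499 CPM and then 0.574, 0.97 and 0.464 CPM, did not separate either (-0.05, SE 0.31, adjusted p = 0.9). BST2 held 3 counts over the 3 proliferating libraries and 36 over the 3 senescent ones, a ratio of 10 with a counting interval of 3.17 to 51. XAF1 held 0 and 14 counts, which is at least 3.9-fold higher with a floor of 3 counts for the group, and the counting interval of the ratio starts at 2.78. These intervals and floors cover counting error only.

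**Figure D2:**
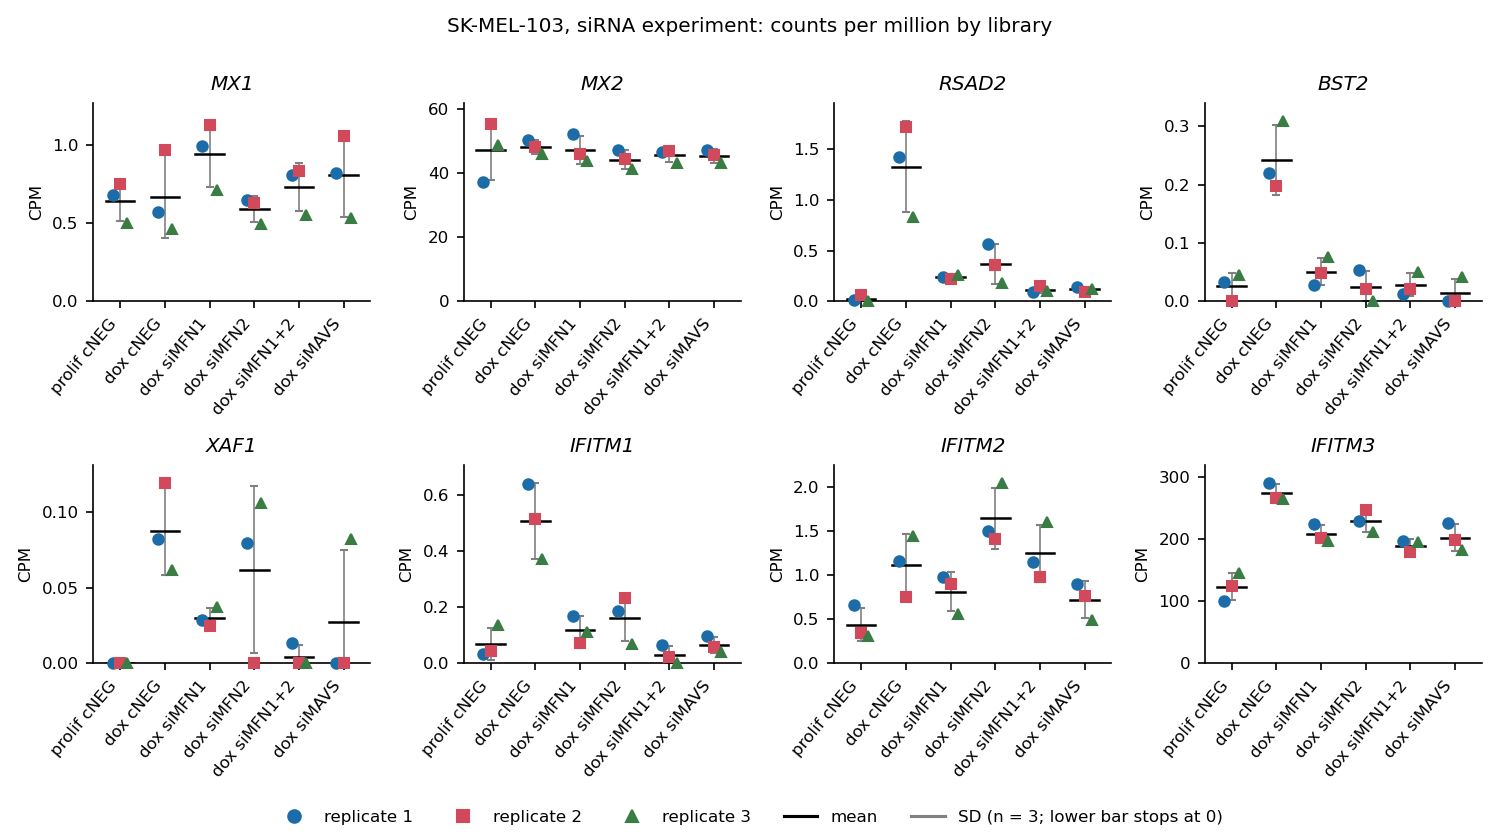
CPM of the 8 genes in each library of the SK-MEL-103 siRNA experiment, 1 panel per gene and a linear axis from 0, with symbols for library number, a line at the mean and bars for the SD (n = 3). In RSAD2 the senescent control libraries lie at 0.835 to 1.72 CPM and every silenced library lies lower, whereas the MX2 groups share 1 level with means of 44.3 to 48.2 CPM.

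Silencing lowered RSAD2 in senescent SK-MEL-103 cells. IFITM1 was called lower with the double silencing, with the filter limit given above. RSAD2 was at 0.241, 0.22 and 0.263 CPM with siMFN1, 0.0926, 0.149 and 0.1 CPM with siMFN1+2 and 0.14, 0.0884 and 0.123 CPM with siMAVS, against 1.42, 1.72 and 0.835 CPM with control siRNA. It fell by 2.46 with siMFN1 (SE 0.40, adjusted p = 0.021), by 3.51 with siMFN1+2 (SE 0.44, adjusted p = 8e-04) and by 3.42 with siMAVS (SE 0.44, adjusted p = 0.0019). With siMFN2 it was at 0.57, 0.358 and 0.177 CPM, below every control library too, and the difference of -1.76 (SE 0.37, adjusted p = 0.25) was called in the fit with adjusted deviances (adjusted p = 0.019), without the low-count filter (adjusted p = 0.01) and in a blocked fit of the compared groups that lacks the unnumbered library (-2.24, adjusted p = 0.00035). The siMFN1 call was lost in 5 of the 6 fits that leave out 1 library (adjusted p 0.078 to 0.21) and kept without control library 3. The calls with siMFN1+2 and siMAVS held in all 6.

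IFITM1 was at 0.0661, 0.0213 and 0 CPM with siMFN1+2 against 0.642, 0.515 and 0.371 CPM in the control, and fell by 3.59 (SE 0.56, adjusted p = 0.0058). That call was lost without control library 1 (adjusted p = 0.058) or siMFN1+2 library 2 (adjusted p = 0.079). IFITM1 held 47, 26 and 12 counts in the control group and passed the low-count filter through it, so the call is not read as a result. IFITM1 was below the control in every library with siMFN1 (0.17, 0.0735 and 0.113 CPM), siMFN2 (0.186, 0.232 and 0.0707 CPM) and siMAVS (0.0977, 0.0589 and 0.0411 CPM). Those differences of -2.02, -1.56 and -2.74 were not called (adjusted p = 0.27, 1 and 0.061), and the first and last were called with adjusted deviances (adjusted p = 0.024 and 0.0036).

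IFITM3, the abundant family member, was at 224, 203 and 197 CPM with siMFN1, 229, 248 and 212 CPM with siMFN2, 197, 179 and 195 CPM with siMFN1+2 and 226, 199 and 183 CPM with siMAVS, each group below the control at 291, 266 and 265 CPM. The differences were small, -0.39, -0.24, -0.50 and -0.40 (SE 0.11 each), and not called (adjusted p = 0.67, 1, 0.12 and 0.85). DESeq2 called that of siMFN1+2 (adjusted p = 0.015). IFITM2 pointed either way, from -0.55 with siMAVS to 0.57 with siMFN2, with no call. MX1 and MX2 were not called with any siRNA, and MX2 differed by -0.11 to -0.01.

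Counted over the 6 genes tested, 1 was called lower with siMFN1 against 0.0836% of all genes lower (0.0892% in either direction), 2 with siMFN1+2 against 0.162% (0.173%) and 1 with siMAVS against 0.0836%. These shares were above those of all genes, but they rest on RSAD2 in all 3 comparisons, each against the same control libraries. The other gene with siMFN1+2 was IFITM1, which passed the low-count filter through the control group. The shares are thus not read as a result about the genes as a set. With siMFN2 the count was 0 against 0.0167% of all genes by edgeR, with 3 genes at an unadjusted p below 0.05 (2.84% of all genes) and 0 called by DESeq2. With adjusted deviances the counts were 2 with siMFN1 (0.123% of genes), 1 with siMFN2 (0.0669%) and 2 with siMAVS (0.1%).

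BST2 and XAF1 were compared as raw counts over 3 libraries. BST2 had 36 counts in the senescent control, 3 with siMFN1+2 and 1 with siMAVS, ratios of 10.9 (counting interval 3.46 to 55.6) and 30 (5.05 to 1220). XAF1 had 14, 1 and 2 counts, ratios of 12.8 (1.94 to 540) and 5.83 (1.34 to 52.8). With siMFN1 and siMFN2, BST2 had 6 and 5 counts and XAF1 4 and 9, so XAF1 was hardly lower with siMFN2.

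With the library number as a block in a fit of only the compared groups, RSAD2, IFITM1 and IFITM3 were called lower with siMFN1 (adjusted p = 4.5e-05, 0.0017 and 1.7e-05), 3 genes against 18.4% of all genes. The same 3 were called with siMFN1+2 (adjusted p = 1.3e-06, 0.00015 and 4.9e-06) against 8.2%. The filter limit on IFITM1 holds for these fits too. With siMAVS the block ended the RSAD2 call (adjusted p = 0.075), in a fit that called 0.0121% of all genes.

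The double silencing and siMAVS could not be separated in SK-MEL-103 by these genes: 0 of 6 were called between them by edgeR against 0.1% of all genes, 0 had an unadjusted p below 0.05 and DESeq2 called 0. For RSAD2 the log2 difference of siMFN1+2 minus siMAVS was -0.09 with a 95% interval of -1.27 to 1.09, which does not show that they act alike. Against proliferating cells, the senescent siMFN1+2 cells had IFITM3 (0.55, adjusted p = 0.00046), IFITM2 (1.32, adjusted p = 0.0039) and RSAD2 (1.74, adjusted p = 0.044) called higher, 3 of 6 against 60.3% of all genes. The RSAD2 call was lost in 5 of the 6 fits that leave out a library. IFITM1 was not called there (-0.53, 95% interval -2.19 to 1.13).

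**Figure D3:**
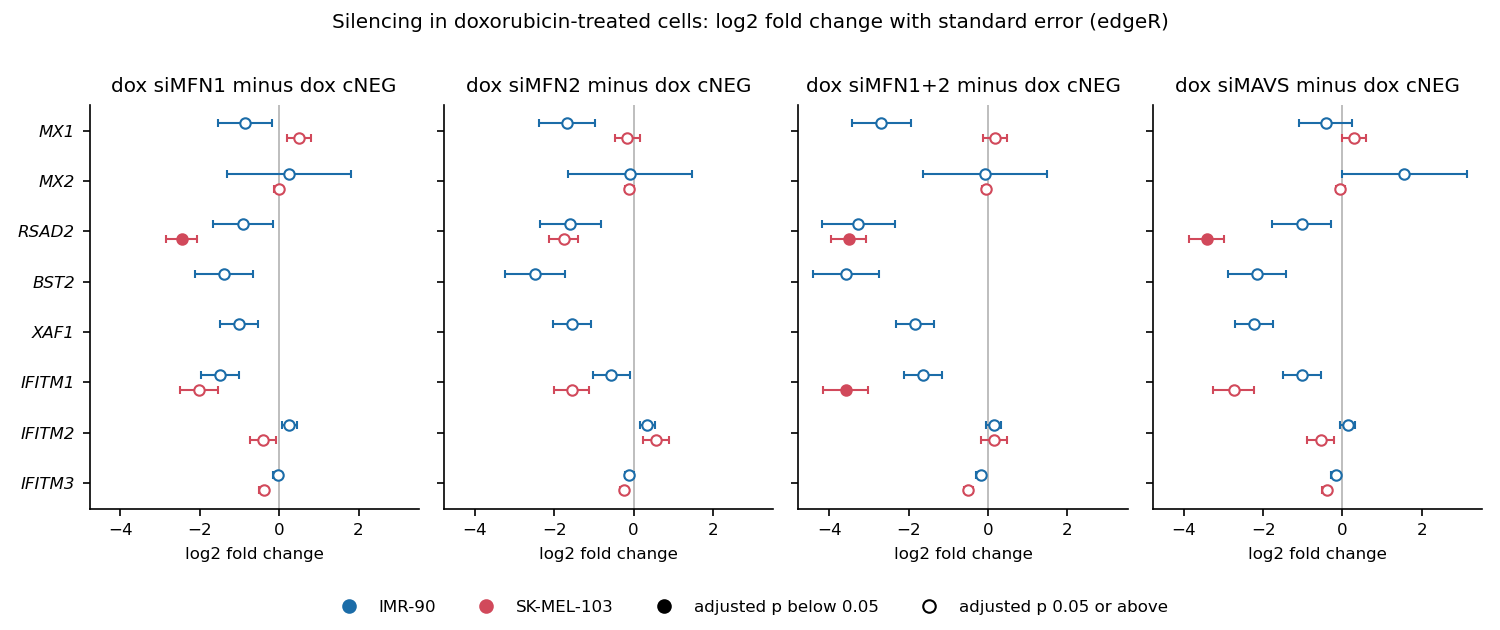
Log2 difference of each silencing from control siRNA in senescent cells for the 8 genes in IMR-90 and the 6 tested in SK-MEL-103, with bars for the SE on each side and filled symbols for called genes. RSAD2 in SK-MEL-103 lies from -3.51 to -1.76, BST2 in IMR-90 from -3.57 to -1.39, and MX2 in SK-MEL-103 close to 0.

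Between the lines, SK-MEL-103 had much less IFITM1 and IFITM2 and much more MX2 than IMR-90. In proliferating cells 6 of 8 genes were called (52.1% of 20892 genes): MX2 higher in SK-MEL-103 by 3.29 (SE 1.05, adjusted p = 0.0098), and IFITM2 (-8.17), IFITM1 (-7.23), IFITM3 (-0.92), BST2 and XAF1 lower. BST2 and XAF1 were too low to be tested within SK-MEL-103 and passed the low-count filter here through IMR-90. Their calls as lower, here and after doxorubicin, follow from that filter and are not read as a result. The counts of 6 of 8 here and 7 of 8 after doxorubicin include these calls and are likewise not read as a result. The 8 genes compared between the responses of the lines below include both. From raw counts, BST2 was 27.7 times higher in IMR-90 (counting interval 9.12 to 137) and XAF1, with 0 counts in SK-MEL-103, at least 189-fold higher by the same floor, with an interval that starts at 153. After doxorubicin 7 of 8 were called (60.5% of genes), with RSAD2 the exception. Without IMR-90 control library 3 the MX1 and IFITM3 calls were lost there (adjusted p = 0.22 and 0.27) and RSAD2 was called higher in SK-MEL-103 (2.14, adjusted p = 0.0038).

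In the siRNA experiments, the response to doxorubicin itself differed between the lines in the IFITM genes. Subtracting the IMR-90 effect from that of SK-MEL-103 left 2.78 for IFITM1 (SE 0.79, adjusted p = 0.011), 1.84 for IFITM2 (SE 0.37, adjusted p = 0.00068) and 0.64 for IFITM3 (SE 0.16, adjusted p = 0.004), 3 of 8 genes against 22.4% of all genes. IFITM2 went up in SK-MEL-103 and down in IMR-90. The IMR-90 side of this test is the day 7 siRNA experiment alone. In the compound experiment, given below, doxorubicin raised IFITM1 and IFITM3 in IMR-90, and IFITM2 was not called. The IFITM1 difference was no longer called without SK-MEL-103 proliferating library 1 (2.38, adjusted p = 0.051). For the silencing effects, 0 of 8 genes differed between the lines by edgeR with siMFN1 (0.115% of genes), siMFN2 (0.0239%), siMFN1+2 (0.129%) or siMAVS (0.0239%). At an unadjusted p below 0.05 the counts were 1 (8.62% of all genes), 0, 3 (8.29%) and 2 (7.21%), and DESeq2 called 0 in each. So a call on RSAD2 in SK-MEL-103 beside none in IMR-90 is not a shown difference: for siMFN1+2 the difference of effects was -0.25 (95% interval -2.69 to 2.19).

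In the compound experiment, doxorubicin in DMSO raised 6 of the 8 genes by day 9, all but MX2 and IFITM2. The 6 compare with 54.4% of 19056 genes called and 28.3% called higher, and their median over all 8 was 2.44 against 0.11 for all genes. These senescent cells are also 2 days later than those of the siRNA experiment and had no siRNA, so levels across the experiments are set side by side only.

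RSAD2 had 1 count in the 3 proliferating DMSO libraries and 426 in the 3 senescent ones, at 4.92, 0.263 and 2.28 CPM. The ratio was 353 with a counting interval of 63 to 14000, and the call (adjusted p = 0.0012) held in all 6 fits that leave out a library. MX1 was at 1.03, 0.689 and 1.01 CPM before and 12.8, 2.15 and 7.8 CPM after, without overlap, and rose by 3.07 (SE 0.66, adjusted p = 0.0027). XAF1 went from 2.13, 2.43 and 1.45 CPM to 25.6, 7.6 and 14.8 CPM, a rise of 3.00 (SE 0.53, adjusted p = 0.00079).

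BST2 was at 0.559, 0.839 and 0.289 CPM before and 8.12, 0.837 and 4.68 CPM after, so library 2 did not rise above the proliferating level. It was called higher by 3.00 (SE 1.03, adjusted p = 0.03), and the call was lost in 5 of the 6 fits that leave out a library (adjusted p 0.054 to 0.12). IFITM1 rose by 1.88 (SE 0.48, adjusted p = 0.0075), from 6.02, 8.12 and 4.82 CPM to 37.5, 16.8 and 14.8 CPM. IFITM3 rose by 0.88 (SE 0.17, adjusted p = 0.0013), from 215, 233 and 166 CPM to 406, 357 and 360 CPM. IFITM2 showed no difference between 125, 126 and 89.6 CPM and 102, 132 and 105 CPM (0.00, 95% interval -0.32 to 0.33).

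Library number 2 was the lowest senescent library in MX1, MX2, RSAD2, BST2 and XAF1 with DMSO, with MFI8 and with BI alike. Leaving out number 2 of every group, an alternative chosen after seeing the data, kept the 6 calls and gave 3.38 for MX1 (adjusted p = 5.6e-05) and 3.83 for BST2 (adjusted p = 0.00029).

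**Figure D4:**
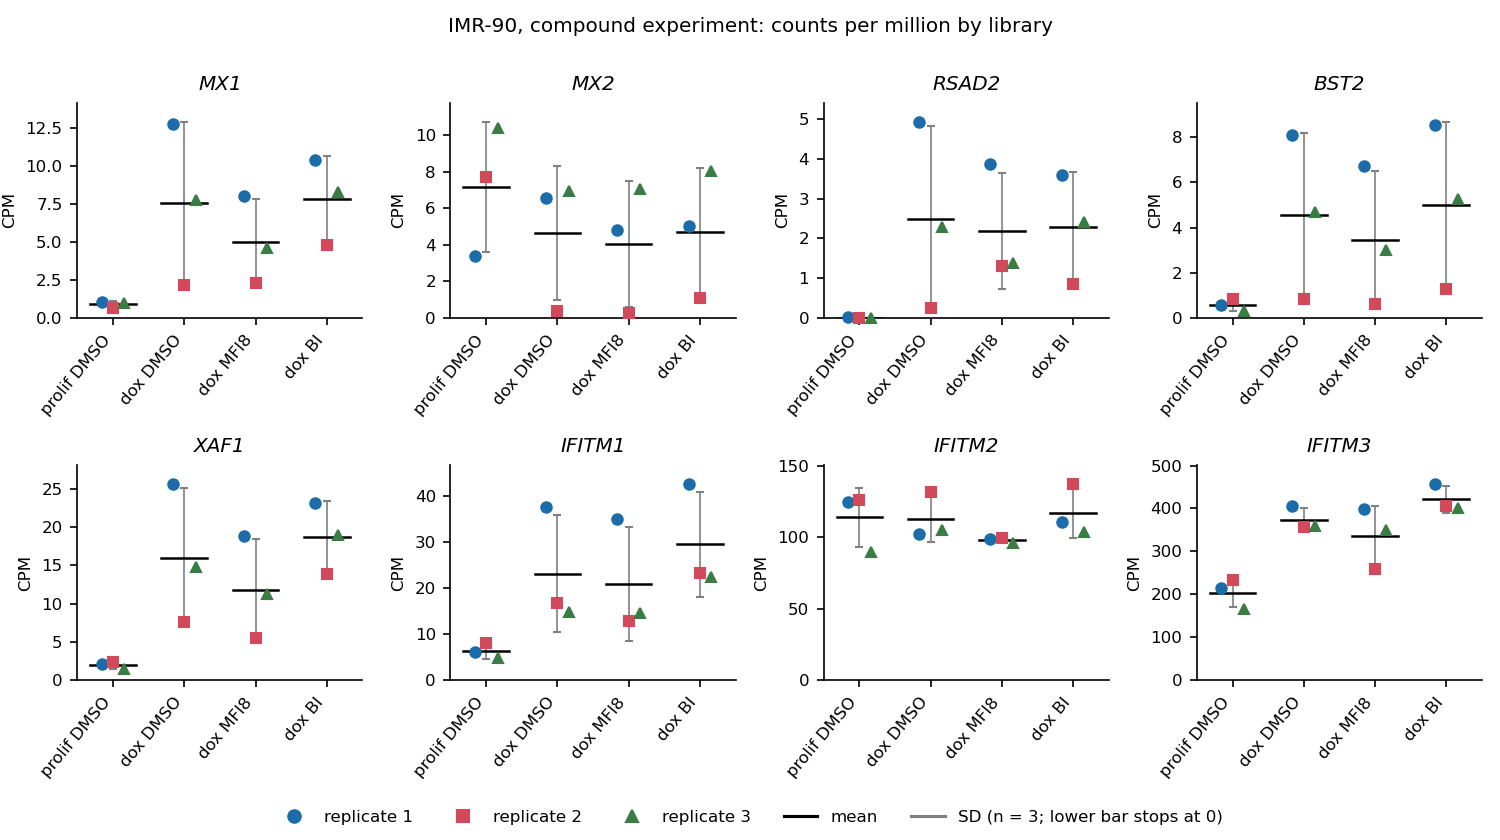
CPM of the 8 genes in each library of the compound experiment, 1 panel per gene and a linear axis from 0, with symbols for library number, a line at the mean and bars for the SD (n = 3; lower bars stop at 0). Library 2 is the lowest of each senescent group in MX1, at 2.15, 2.33 and 4.81 CPM.

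Neither compound gave a called change in the fit that takes no account of library number. A fit with the number as a block did call genes and is given below. With MFI8 against DMSO, BI against DMSO and MFI8 against BI, 0 of 8 genes were called, as were 0% of all 19056 genes by edgeR. No gene of the 8 had an unadjusted p below 0.05 in any of these 3 comparisons and DESeq2 called 0. MX1 was at 8.05, 2.33 and 4.6 CPM with MFI8, at 10.4, 4.81 and 8.33 CPM with BI and at 12.8, 2.15 and 7.8 CPM with DMSO. The log2 difference from DMSO was -0.60 for MFI8 (95% interval -1.91 to 0.71) and 0.05 for BI (-1.26 to 1.35). For RSAD2, at 3.87, 1.31 and 1.38 CPM with MFI8 and 3.6, 0.865 and 2.41 CPM with BI, the intervals were -2.03 to 1.66 and -1.98 to 1.72. Changes of several-fold in either direction would lie within these intervals, which take no account of library number. They do not show that the compounds leave these genes as they were.

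The intervals were narrow for the abundant genes. IFITM3 was at 399, 258 and 349 CPM with MFI8 and 456, 405 and 401 CPM with BI, and differed from DMSO by -0.15 (95% interval -0.52 to 0.21) and 0.17 (-0.20 to 0.54). IFITM2, at 98.6, 99.5 and 96.3 CPM with MFI8 and 111, 137 and 104 CPM with BI, differed from DMSO by -0.20 (-0.53 to 0.12) and 0.06 (-0.27 to 0.38). Set side by side at their unequal doses of 20 and 10 µM, MFI8 and BI libraries did not overlap in IFITM2 and IFITM3. How many of all genes separate in this way was not counted, so the separation is not read as a result. For IFITM2 and IFITM3 the log2 difference of MFI8 minus BI was -0.26 (95% interval -0.58 to 0.07) and -0.32 (-0.69 to 0.04), neither called.

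Libraries of the same number moved together strongly in this experiment. With the number as a block in a fit of only the compared groups, XAF1 was called lower with MFI8 (-0.44, adjusted p = 0.017), 1 of 8 against 2.77% of all genes. IFITM1 (0.36, adjusted p = 0.00072) and IFITM3 (0.17, adjusted p = 0.044) were called higher with BI, 2 of 8 against 3.72% of genes. Between MFI8 and BI that fit called 0 of 8 against 0.5% of genes. XAF1 was at 25.6, 7.6 and 14.8 CPM with DMSO and 18.9, 5.49 and 11.2 CPM with MFI8, lower within each number.

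MX2 did not follow the other genes in IMR-90. It ranged from 0 to 10.6 CPM over the 30 libraries, without a call in any comparison there, and varied as much within groups as between them. With control siRNA and with each mitofusin siRNA, library 2 was the high one after doxorubicin, at 5.1 CPM with control siRNA against 0.89 and 1.37 CPM, at 7.24 against 1.29 and 0.164 CPM with siMFN1, at 6.05 against 0.703 and 0.131 CPM with siMFN2, and at 5.7 against 1.1 and 0 CPM with siMFN1+2. With siMAVS libraries 2 and 3 were both high, at 10.1 and 10.6 against 1.23 CPM. In proliferating cells it was the low one, at 0.0304 against 7.44 and 7.36 CPM. In the compound experiment library 2 was low after doxorubicin, at 0.406, 0.267 and 1.07 CPM with DMSO, MFI8 and BI, and at 7.7 CPM in proliferating cells.

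By the likeness rule (Pearson r over the 16 group means of log2 CPM, each centred on the mean of its experiment, among 15350 genes), the gene nearest to MX2 was HOXC6, a homeobox gene that marks position along the body axis, with r = 0.945. The likeness also held from library to library: HOXC6 was at 1.29 CPM in control library 2 after doxorubicin against 0.166 and 0 CPM, and at 0.0304 CPM in proliferating library 2 against 1.16 and 1.25 CPM. There were exceptions: siMAVS library 1 had MX2 at 1.23 CPM and HOXC6 at 2.27 CPM, and library 1 of the senescent DMSO, MFI8 and BI groups had MX2 at 6.59, 4.8 and 5.01 CPM with HOXC6 at 0.181, 0.253 and 0.273 CPM. The 16 means share libraries and controls within each experiment, so no p is given.

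**Figure D5:**
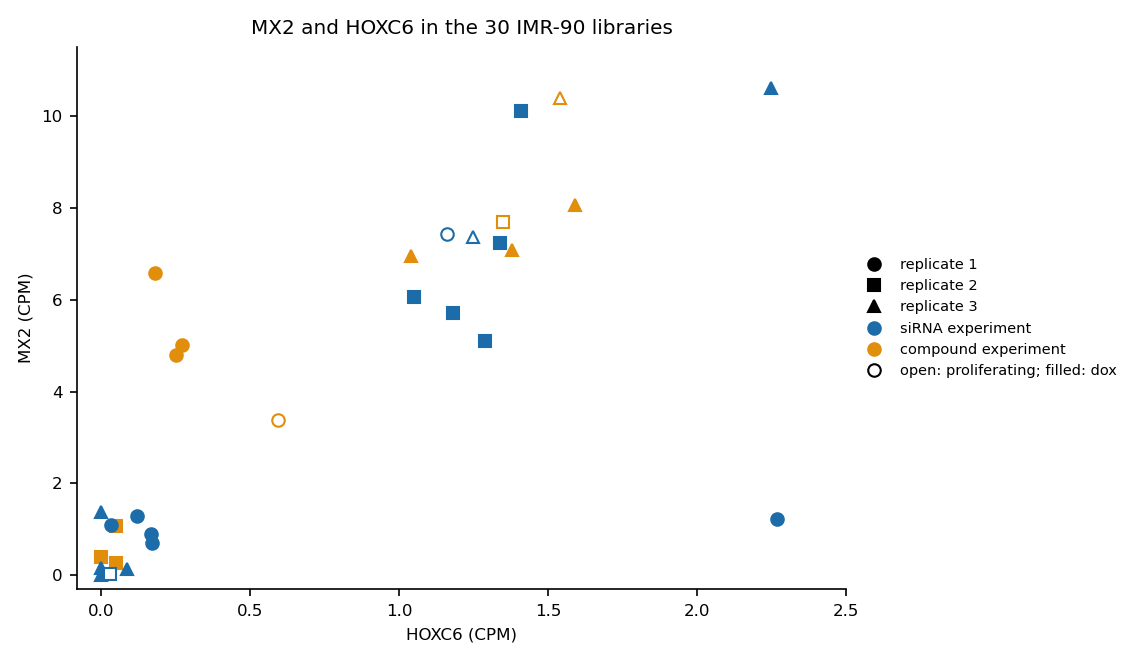
MX2 against HOXC6 in the 30 IMR-90 libraries, both in CPM on linear axes, with shapes for library number, colours for the experiment and open symbols for proliferating cells. Of the libraries with HOXC6 above 1 CPM, all but 1 have MX2 of 5.1 CPM or more, and the point at lower right is siMAVS library 1 (HOXC6 2.27, MX2 1.23).

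The other genes lay nearest to other interferon targets or to genes of other kinds by the same rule. RSAD2 was nearest to IFI6 (r = 0.944), ISG15 (0.935) and IFI27 (0.933), all interferon-induced. BST2 was nearest to OAS1 (0.953), which makes the second messenger that activates RNase L, and IFITM3 to SHISA5 (0.972), WDR25 (0.964) and IFIT2 (0.961). MX1 was nearest to NFATC4 (0.911), XAF1 to LXN (0.934), IFITM1 to COLEC12 (0.923) and IFITM2 to ZC4H2 (0.892). Among themselves, BST2 and XAF1 were the closest pair (r = 0.95), MX1 with BST2 and RSAD2 with IFITM3 came next (0.86 each), and IFITM2 and MX2 stood apart, with r of -0.49 to 0.33 to the others.

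Of the interferon pathway described above, whose part here was not tested, the ligand IFNB1 was close to undetected, with 9 counts over all 48 libraries and at most 2 in a library. IFNE, also on the list of interferon genes, went with doxorubicin from 0.156 to 0.95 CPM in IMR-90 with control siRNA (2.65, edgeR adjusted p = 0.00064). Its response was lower in SK-MEL-103, by a difference of effects of -2.98 (edgeR adjusted p = 0.014). STAT2 and IRF9, subunits of ISGF3, were called higher with doxorubicin in SK-MEL-103. STAT2 was at 50.4, 58.9 and 57.5 CPM in proliferating cells and 173, 189 and 149 CPM after the drug, a rise of 1.52 (SE 0.12, adjusted p = 2.1e-08), and IRF9 rose by 1.88 (SE 0.36, adjusted p = 0.00026). Both were also called higher in the compound experiment (1.63 and 2.10, adjusted p = 7.9e-06 and 0.0015). In IMR-90 with control siRNA, STAT2 rose by 1.07 (SE 0.23, adjusted p = 0.0012), and the IRF9 difference of 1.13 was not called (adjusted p = 0.082). No silencing gave a called difference in either gene in either line, with STAT2 at -0.19 in SK-MEL-103 and -0.11 in IMR-90 with siMFN1+2.

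Of a list of 56 other interferon-induced antiviral genes, 11 were called higher and 8 lower of 55 tested with doxorubicin in IMR-90, 32 and 9 of 50 in SK-MEL-103, and 23 and 1 of 55 in the compound experiment. Over all genes, the shares higher and lower were 25.9% and 23.6%, 29.4% and 29.9%, and 28.3% and 26.2%, so in IMR-90 with siRNA the shares of the list lay below those of all genes in both directions, a difference that was not tested. IFI27, a small mitochondrial protein gene, led in IMR-90 (4.07) and in DMSO (5.34), and SLFN11, which restricts translation through transfer RNA, was among the lowest in all 3 (-2.96, -2.96 and -2.29). With silencing in SK-MEL-103, 9 were called lower with siMFN1, 1 with siMFN2, 12 with siMFN1+2 and 10 with siMAVS, and none higher; IFI27 (-3.09) and IFI44L (-2.86) led with siMFN1+2. In IMR-90 the counts were 1 higher with siMFN1 (GBP1, 0.84), none with siMFN2 by edgeR (15 at an unadjusted p below 0.05), 2 lower with siMFN1+2 (IFI44 at -2.10 and IFI6 at -1.93) and 2 lower with siMAVS (IFI44L at -3.00 and IFI6 at -2). The compounds gave none. Of 28 genes for interferons, receptors and signalling, 5 were called higher and 1 lower of 18 tested with doxorubicin in IMR-90, 7 and 1 of 17 in SK-MEL-103 and 10 and 2 of 20 in the compound experiment.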

How the data were processed

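The deposited table holds raw counts per Ensembl gene, whole numbers that the authors did not normalize. Per the submitters' processing notes, reads were handled with Trim Galore 0.6.7, STAR 2.7.10a and featureCounts on GRCh38; the annotation release, strand setting and treatment of reads that map to more than 1 place are not given in the sources used here. Symbols were found for 48679 of 48898 identifiers (0.122% of counts had none).

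Tests used edgeR 4.0.16 under R 4.3.3, with limma 3.58.1 loaded. Each experiment was fitted as a whole (both siRNA experiments together to compare the lines), after filterByExpr and TMM scaling, and contrasts were read from quasi-likelihood F tests with Benjamini-Hochberg adjustment over all genes tested. Reported values have no replicate block. SE is the log2 difference over the square root of F, and 95% intervals use the test's degrees of freedom. CPM are relative to totals scaled by TMM over all 48 libraries. Totals of 15206115 to 79204217 counts leave values under about 3 counts per group imprecise. The counting intervals are exact, and without molecular identifiers they cover counting error only. The fit was also run on simulated counts, with no effect of library number and with changes placed only in more abundant genes. That run does not bear on genes of low CPM or on pairing by number.

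Whether equal library numbers pair samples was checked by the correlation of deviations from group means, pair by pair, with 0.1 as the minimum for all 3 pairs. It lay at 0.395 to 0.722 for the 3 mitofusin silencings in IMR-90, 0.144 to 0.436 for siMFN1, siMFN1+2 and siMAVS in SK-MEL-103 and 0.653 to 0.88 for the compounds, and these count as paired; the numbers come from the titles. The title of 1 siMFN2 library of SK-MEL-103 gives no number, and blocked fits leave that library out. Alternatives were RLE size factors, no low-count filter, DESeq2 1.42.0, the block, and leaving out each library. A further 3 alternatives were chosen after seeing the data: a robust fit, a fit with adjusted deviances, and leaving out library 2 of every compound group.

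The 8 genes, the 4 gene lists and the rules were chosen with earlier results of these data known. All 8 genes are named, and of each list the 2 highest and 2 lowest called genes of a comparison may be; STAT2, IRF9, IFNB1 and CMPK2 were followed throughout, 1 further gene is not reported here, and the 3 most alike genes are named by correlation of group means of log2(CPM + 0.5), centred within each experiment.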

Additional observations from a re-analysis of the deposited data

Results flagged for a closer look

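The response to doxorubicin differed between the 2 cell lines in 3 of the 8 genes, by a test of the difference itself in 1 edgeR fit of both siRNA experiments. Subtracting the IMR-90 effect from that of SK-MEL-103 left 2.78 on the log2 scale for IFITM1, 1.84 for IFITM2 and 0.64 for IFITM3. The IMR-90 side is the day 7 siRNA experiment alone. In the compound experiment on day 9, IMR-90 means went with doxorubicin from 6.32 to 23.1 CPM for IFITM1 and 204 to 374 CPM for IFITM3. IFITM2 was at 114 CPM and then 113 CPM there. The difference is thus not shown to be a trait of the lines. IFITM1 and IFITM2 share exon sequence, and both are low in SK-MEL-103, so the split of reads between them bears on both values and was not tested.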

How the results depend on the processing

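Of 2660 values of single genes under the alternatives, 2551 stayed on the same side of the threshold, 122 of them with a changed sign and no call, 55 lost a call, 54 gained one and 0 changed sign with a call. The causes were not tested. Where no share of all genes is given here or above, a count below is not read as a result about these genes. Number of genes called, where it moved by over 1.5 times: with the replicate block on only the groups compared, 1 in IMR-90 dox against proliferating (27.2% of all genes), 3 with siMFN1, 3 with siMFN2 and 4 with siMFN1+2, 1 in siMFN1+2 against proliferating (16.9%), 3 with SK-MEL-103 siMFN1, 2 with siMFN2 (4.38%) and 0 with siMAVS, 1 with MFI8, 2 with BI, and 1 in the line differences of dox and of siMFN1+2. With the block over the whole experiment it was 1 in IMR-90 siMFN1+2. The block moved no other count by over 1.5 times. DESeq2 gave 1, 2, 4 and 1 in IMR-90 siMFN1, siMFN2, siMFN1+2 and siMAVS. No filter gave 1, 1 and 1 in IMR-90 siMFN1+2, siMAVS and siMFN1+2 against proliferating, and 1 and 3 in SK-MEL-103 siMFN2 and siMAVS. Adjusted deviances gave 2, 1 and 1 in those 3 IMR-90 comparisons and 2, 1 and 2 in SK-MEL-103 siMFN1, siMFN2 and siMAVS. RLE gave 1 in IMR-90 siMFN1+2 against proliferating. Leaving out 1 library gave 3 to 5 (IMR-90 dox), 0 to 1 (siMFN1+2, siMAVS, siMFN1+2 against proliferating), 4 to 5 (SK-MEL-103 dox), 0 to 1 (siMFN1), 1 to 2 (siMFN1+2), 1 to 1 (siMAVS), 2 to 3 (siMFN1+2 against proliferating), 5 to 6 (DMSO dox), 2 to 4 (line difference of dox), 6 to 6 and 6 to 7 (lines before and after dox), and 0 to 0 in the rest.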
